A study of Mus musculus with 8 samples.

Results

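The Slc25 genes encode the mitochondrial carriers, and they were measured here in the hearts of mouse embryos with and without SIRT1. Members were all probes whose accession matched a gene symbol starting with *Slc25a*, which gave 63 probes of 45 genes out of 41174 probes on the array and 19096 genes named by the same match. RNA of whole hearts was compared between 4 wild-type (WT) embryos and 4 embryos with a whole-body germ-line deletion of SIRT1 (SIRT1 KO), all C57BL/6 by the labels (C57BL/6J in the study's methods) at E18.5 of embryonic development and from chow-fed mice, with 1 heart on each one-color Agilent array. The SIRT1 gene encodes an NAD-dependent protein deacetylase. The deletion affects every tissue of the embryo and not the cardiomyocytes alone, and in RNA of a whole heart fewer cells of a type and less RNA per cell cannot be told apart. Neither *Sirt1* probe was called lower, so the group is named here by its label. The probe A_52_P358612 gave -0.14, 0.32, 0.00 and 0.00 in the WT hearts and 0.64, 0.50, 0.43 and 0.75 in the hearts labelled SIRT1 KO, which lay above them all with a log2 fold change of 0.54 (SE 0.11, adjusted p = 0.0323, limma). The probe A_51_P141152 differed by -0.11 (adjusted p = 0.589, limma), and the position of either probe relative to the deleted part is not given in the sources used here.

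Mitochondrial carriers sit in the inner membrane and exchange nucleotides, phosphate, keto acids, amino acids, acylcarnitines and cofactors between the matrix and the cytosol. The heart depends on them to send ATP from the matrix to the myofibrils and to bring fuel in. They are made in the cytosol and are inserted into the inner membrane through the TIM22 complex. Some members, the uncoupling proteins, are known for letting protons back into the matrix.

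Every value below is a log2 signal with the array's 75th percentile subtracted, so 0 is the 75th percentile of that array and 1 unit is a doubling of the signal. Differences are taken between hearts within a probe. Levels of different probes were used only to choose the 5 brightest genes and to sum marker lists, and say nothing of which gene was expressed more. The 4 WT arrays lay on 1 slide and the 4 arrays labelled SIRT1 KO on the other, each slide with its own scan, so slide, scan and genotype cannot be told apart in any difference below. The 75th percentile ran from 939 to 1033 intensity units in WT and from 777 to 906 in the other genotype, and between 60.0% and 65.4% of the spots on an array were well above background. No spot was saturated, and precision is limited by how few arrays there were. The sources used here do not say from which litters the embryos came.

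Of the 63 probes, 56 of 40 genes exceeded background clearly on 4 or more of the 8 arrays and were tested, and 54 of them were so on all 8. The other 7 were at background on most or all arrays. They were the only probes of *Slc25a18*, a glutamate carrier, *Slc25a21*, an oxodicarboxylate carrier, and *Slc25a41*, *Slc25a48* and *Slc25a54*, and 1 of the probes each of *Slc25a25* and *Slc25a30*. The *Slc25a18* probe was above background on 1 WT array and on no other, and the other 6 were on none. For these genes the arrays give no fold change.

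Of the 3 promoters printed here, *Slc25a33* is shown because both of its probes were lower in the hearts labelled SIRT1 KO (values below), *Slc25a36* because it encodes the other pyrimidine nucleotide carrier, and *Slc25a4* because it encodes the ADP/ATP carrier of the heart. The 250 bases before each start are given 5′ to 3′ on the strand of the gene, from RefSeq on GRCm38.p6. All 3 genes are on the minus strand, *Slc25a33* at chr4:149774268-149774517, *Slc25a36* at chr9:97111042-97111291 and *Slc25a4* at chr8:46211063-46211312. Capitals mark the E-box CACGTG in the first and second sequence and the GABPA motif CCGGAAG in the third.
Slc25a33: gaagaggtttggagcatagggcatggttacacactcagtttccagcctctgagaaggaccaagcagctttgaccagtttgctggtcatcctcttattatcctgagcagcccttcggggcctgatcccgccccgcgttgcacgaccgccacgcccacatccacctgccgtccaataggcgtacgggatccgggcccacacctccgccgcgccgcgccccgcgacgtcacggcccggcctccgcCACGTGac
Slc25a36: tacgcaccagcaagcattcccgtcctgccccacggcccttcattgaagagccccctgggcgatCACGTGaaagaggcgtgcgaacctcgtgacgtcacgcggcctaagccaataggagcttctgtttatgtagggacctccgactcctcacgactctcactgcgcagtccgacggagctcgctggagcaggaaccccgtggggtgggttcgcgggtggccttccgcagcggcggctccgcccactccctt
Slc25a4: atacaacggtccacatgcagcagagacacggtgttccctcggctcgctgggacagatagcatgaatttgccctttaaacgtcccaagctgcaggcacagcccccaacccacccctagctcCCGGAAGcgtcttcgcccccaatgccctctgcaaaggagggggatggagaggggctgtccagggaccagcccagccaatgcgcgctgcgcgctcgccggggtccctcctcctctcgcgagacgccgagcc
The E-box of *Slc25a33* begins 8 bases before the start and that of *Slc25a36* begins 187 bases before it. The GABPA motif of *Slc25a4* begins 130 bases before the start. The motifs were searched on both strands of 300-base windows from 250 bases before to 50 bases after each start, and 43 windows of 34 of the array's carrier genes were in the table. The E-box was in 8 of these windows and in 7.15% of all 32851 windows. CCGGAAG was in 7 of the 43 and in 8.86% of all, GCATGCGC, part of the NRF1 motif, in 2 of the 43 and in 2.71% of all, and the ERR motif AAGGTCA in 0 of the 43 and in 4.72% of all. No 2 of these motifs share a base in the sequences above. These matches describe letters in the windows and carry no measurement from the hearts.

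Across the family, 1 of the 56 tested probes passed the threshold (limma, Benjamini-Hochberg adjusted p under 0.05). It was a probe of *Slc25a27*, higher in the hearts labelled SIRT1 KO, and 0 probes were called lower. That is 1.79% of the family, beside 4.88% of all 25616 probes tested, of which 3.97% were called higher and 0.91% lower. At an unadjusted p under 0.05 there were 12 family probes (21.4%), 6 higher and 6 lower, beside 21.5% of all probes, 13.4% higher and 8.1% lower. The genotypes did not overlap on 6 of the 56 (10.7%), 2 with the hearts labelled SIRT1 KO above and 4 with them below, beside 13.7% of all probes, 8.62% above and 5.07% below. The family's shares were near or under those of all probes. On the lower side they were slightly above, with 10.7% at an unadjusted p under 0.05 (limma) and 7.14% without overlap. These are 6 and 4 probes, with both probes of *Slc25a33* among the 6.

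The differences were small on both sides of 0. The log2 fold change was above 0 for 25 probes and below 0 for 31, which is 44.6% above, beside 51.7% of all probes. It ranged from -0.40 to 0.49 with a median of -0.02, beside a median of 0.01 over all probes. None of the 56 had an absolute log2 fold change above 0.5, while 7.69% of all probes did. The median SD between hearts of 1 genotype was 0.12 in WT and 0.14 in the hearts labelled SIRT1 KO for the family, beside 0.13 and 0.15 for all probes.

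**Figure D1:**
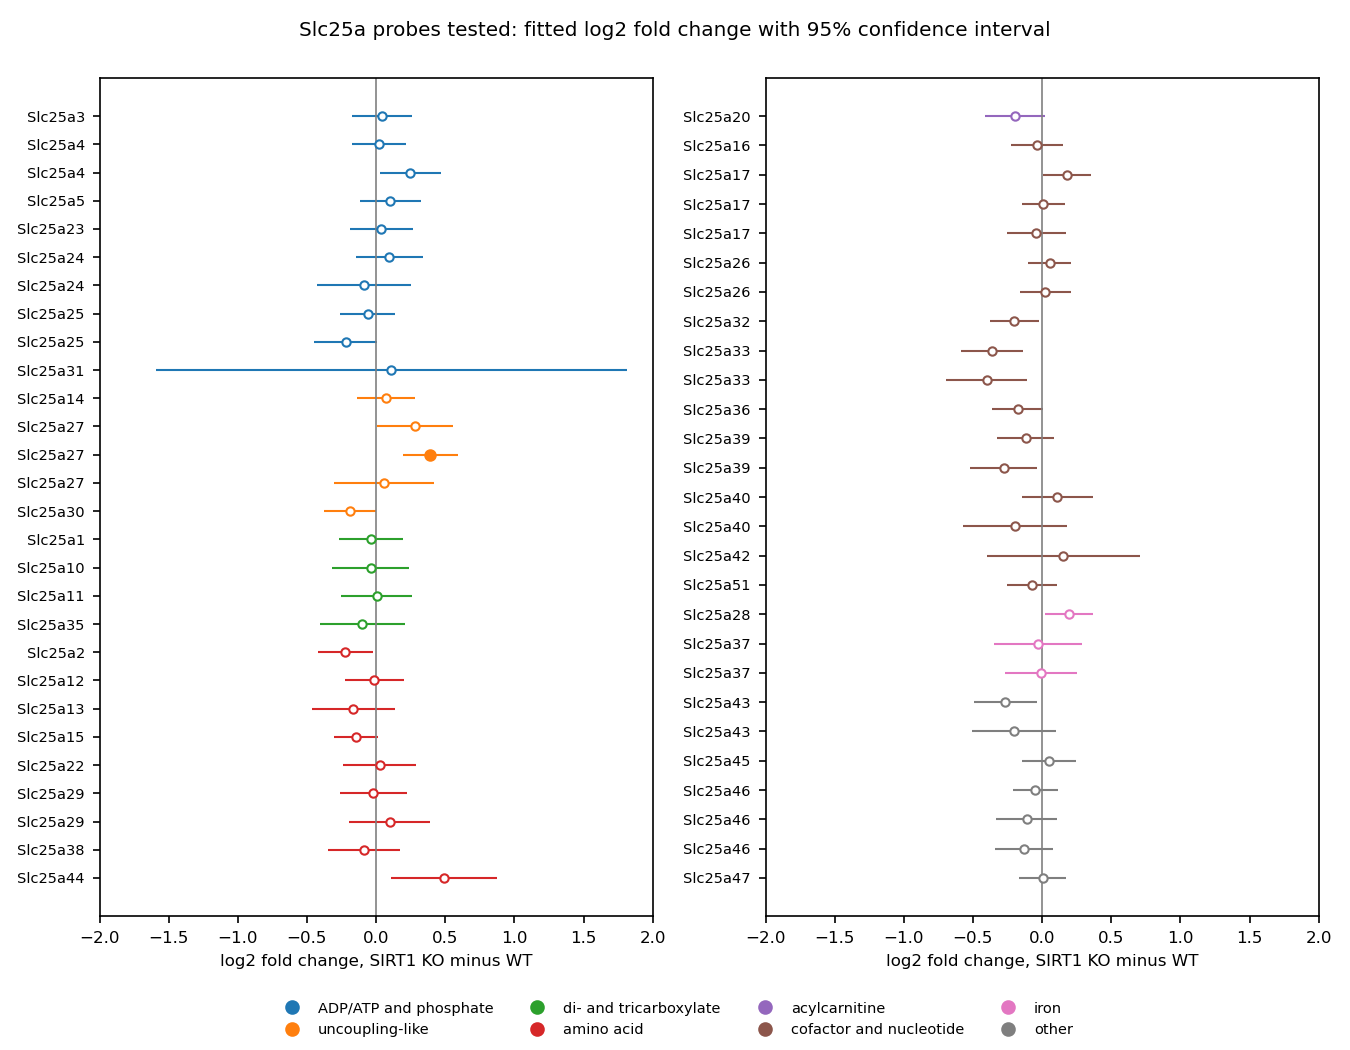
Fitted log2 fold change (SIRT1 KO minus WT, x axis) of 55 of the 56 tested Slc25a probes with its 95% confidence interval, 4 hearts per genotype, ordered and coloured by transported substrate. The 1 filled point, *Slc25a27*, passed the threshold, the points lie between -0.40 and 0.49, and *Slc25a31* has the widest interval, from -1.59 to 1.81.

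*Slc25a4*, *Slc25a5* and *Slc25a3*, which hand ATP to the cytosol and bring phosphate in, were well above background on every array, and none of them was called. *Slc25a4* encodes the ADP/ATP carrier of heart and muscle. Its probe A_51_P108334 gave 8.08, 8.21, 8.17 and 8.46 in the WT hearts and 8.50, 8.42, 8.60 and 8.38 in the hearts labelled SIRT1 KO. WT replicate 4 lay among the second group and the other 3 WT hearts below it, a log2 fold change of 0.25 (SE 0.10, adjusted p = 0.188, limma), which was 0.12 with median scaling, 0.087 with quantile normalization and 0.027 with no scaling. The probe A_52_P105040 of the same gene gave 8.25, 8.29, 8.24 and 8.20 in WT and 8.19, 8.27, 8.48 and 8.14 in the others. Here only SIRT1 KO replicate 3 lay above every WT heart, the log2 fold change was 0.02 (SE 0.09, adjusted p = 0.898, limma), and its sign turned to -0.10 with median scaling of the arrays, to -0.20 with none and to -0.11 with quantile normalization.

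*Slc25a5* encodes the second ADP/ATP carrier, found in most tissues. Its probe gave 7.52, 7.49, 7.53 and 7.52 in WT and 7.58, 7.62, 7.87 and 7.41 in the hearts labelled SIRT1 KO. The WT hearts were close together and the others lay on both sides of them, with a log2 fold change of 0.10 (SE 0.10, adjusted p = 0.571, limma), which was -0.02 with median scaling and -0.12 with none. Without SIRT1 KO replicate 3 it was 0.021 and without replicate 4 it was 0.17. *Slc25a3* encodes the phosphate carrier. It gave 6.12, 5.93, 6.17 and 6.19 in WT and 6.23, 5.99, 6.28 and 6.07 in the others, overlapping groups with a log2 fold change of 0.04 (95% confidence interval -0.18 to 0.26), which was -0.09 with median scaling and -0.18 with none.

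*Slc25a11*, the 2-oxoglutarate carrier, and *Slc25a12*, the aspartate/glutamate carrier of muscle and brain, work together in the malate-aspartate shuttle. *Slc25a11* gave 6.39, 6.17, 6.22 and 6.06 in WT and 6.29, 6.19, 6.42 and 5.96 in the hearts labelled SIRT1 KO. *Slc25a12* gave 4.74, 4.52, 4.48 and 4.64 in WT and 4.78, 4.46, 4.54 and 4.55 in the others. Both pairs of groups overlapped over nearly their whole range. The log2 fold changes were 0.00 (95% confidence interval -0.26 to 0.26) and -0.01 (-0.23 to 0.20), and both signs turned under other scalings, to -0.13 for *Slc25a11* with median scaling and to 0.02 for *Slc25a12* with quantile normalization or cyclic loess.

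**Figure D2:**
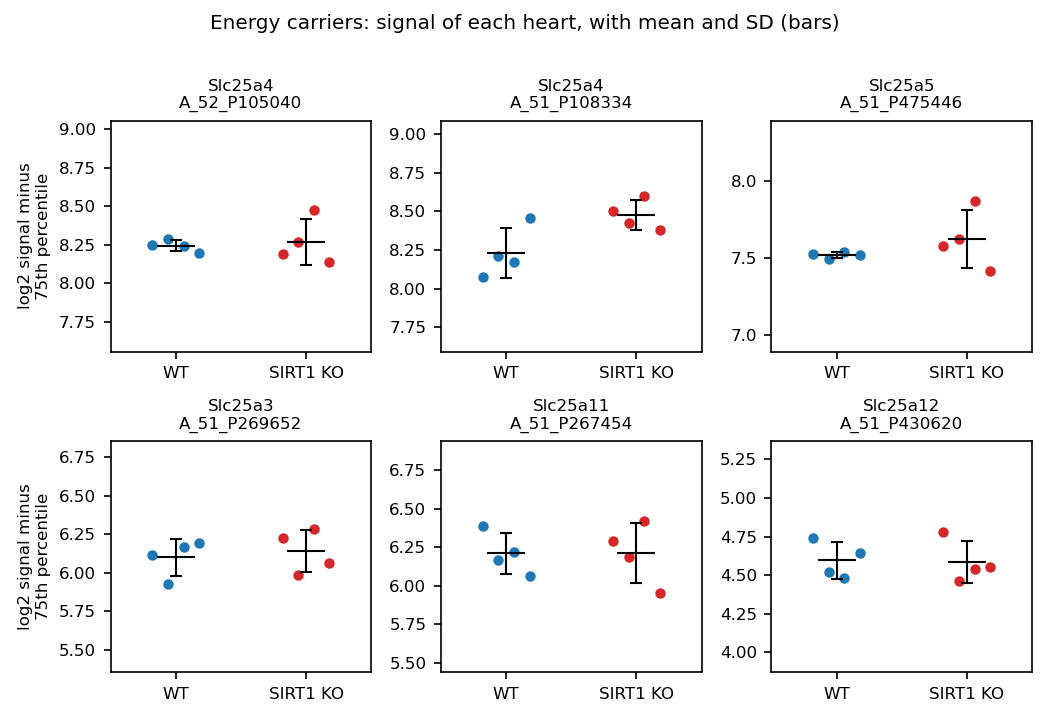
Log2 signal minus the array's 75th percentile (y axis) of each heart on the probes of *Slc25a4*, *Slc25a5*, *Slc25a3*, *Slc25a11* and *Slc25a12*, with the mean and SD of 4 hearts as bars, each panel spanning the same height. The genotypes overlap in every panel, and on A_51_P108334 of *Slc25a4* the difference is 0.25.

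The rest of this group carries ATP-Mg and phosphate under the control of calcium. *Slc25a23*, *Slc25a24* and *Slc25a25* had 5 tested probes between -0.22 and 0.09 and none was called. The lowest was A_51_P193176 of *Slc25a25* (-0.22, adjusted p = 0.248, limma), while the other tested probe of that gene gave -0.06. *Slc25a31*, the ADP/ATP carrier of the testis, was close to background. Its probe was above background on 3 arrays of each genotype and gave -4.90, -5.35, -4.91 and -6.13 in WT and -5.18, -7.42, -3.15 and -5.09 in the hearts labelled SIRT1 KO. The second group held both the lowest and the highest heart, SIRT1 KO replicates 2 and 3, and its SD was 1.75.

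*Slc25a27*, also known as uncoupling protein 4 and best known from neurons, was the called gene. Its probe A_51_P125771 gave -2.30, -2.42, -2.33 and -2.40 in the WT hearts and -1.79, -1.97, -2.16 and -1.95 in the hearts labelled SIRT1 KO. All 4 of these lay above all 4 WT hearts, with SIRT1 KO replicate 3 nearest to WT and replicate 1 highest. The log2 fold change was 0.39 (SE 0.09, adjusted p = 0.0397, limma), which is 1.31-fold, and the exact permutation p was 0.0286, the smallest that 4 against 4 hearts allow. The call held in 5 of 14 other ways of processing and in 1 of 8 fits with a heart left out, the one without SIRT1 KO replicate 3 (0.46). The value stayed between 0.17 and 0.46 in all of them, with adjusted p between 0.0165 and 0.317 (limma; one of the 14 is the methods' analysis of variance).

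The other probes of *Slc25a27* were also higher and were not called. A_52_P104091 gave -1.46, -1.36, -0.95 and -1.28 in WT and -0.97, -0.99, -1.16 and -0.81 in the hearts labelled SIRT1 KO. WT replicate 3 lay among the second group, and the log2 fold change was 0.28 (SE 0.12, adjusted p = 0.228, limma). A_52_P100069 gave -4.59, -4.40, -4.45 and -5.06 in WT and -4.28, -4.58, -4.67 and -4.75 in the others, overlapping groups with a log2 fold change of 0.06 (SE 0.16), which turned below 0 with median scaling, quantile normalization, cyclic loess and no scaling.

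Markers of nerve and glia were read beside *Slc25a27*, from a list chosen after its values were seen. Of 14 genes, 7 were above background on no array, among them *Th*, *Dbh*, *Prph* and *Snap25*, genes of peripheral and other neurons. Of 7 tested probes 1 was called (14.3%, beside 4.88% of all probes). It was *Sox10*, a transcription factor of neural crest and glia, with a log2 fold change of 0.80 (SE 0.15, adjusted p = 0.0199, limma). At an unadjusted p under 0.05 (limma) there were 3 higher (42.9%, beside 13.4% of all probes) and 1 lower (14.3%, beside 8.1%). The lower one was at -0.46. The summed level of the list (sum of linear levels relative to the 75th percentile) was 1.66 to 1.77 in WT and 1.66 to 1.87 in the hearts labelled SIRT1 KO. The part of these cells in the *Slc25a27* difference was not tested.

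Liver markers were high in 2 hearts of the same group. Their summed level was 114 in SIRT1 KO replicate 1 and 59.7 in replicate 4, beside 12.5 and 17.8 in the other pair and 10.7 to 26.6 in WT. All 6 tested markers were higher and 0 were called (limma; 0 also at an unadjusted p under 0.05). Without replicates 1 and 4 the *Slc25a27* difference was 0.30 (adjusted p = 0.197, limma) and no carrier probe was called. *Slc25a47*, a carrier of the liver, gave -1.43, -1.64, -1.60 and -1.56 in WT and -1.56, -1.54, -1.46 and -1.64 in the others, a log2 fold change of 0.00 with no higher value in the hearts with high liver markers.

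The other uncoupling-like carriers were not called. *Slc25a14* (uncoupling protein 5) overlapped between genotypes with a log2 fold change of 0.07. *Slc25a30*, close in sequence to it and known from kidney, gave -1.76, -1.58, -1.69 and -1.81 in WT and -2.05, -1.89, -1.82 and -1.84 in the hearts labelled SIRT1 KO on A_51_P354652. The second group lay wholly below WT by a narrow gap, with a log2 fold change of -0.19 (SE 0.08, adjusted p = 0.236, limma). Its other probe was above background on no array, where values from -6.78 to -6.07 in WT and from -7.49 to -6.80 in the others are not a measured level.

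*Slc25a33* had the lowest log2 fold changes of the family, on both of its probes, and neither was called. It encodes a pyrimidine nucleotide carrier that brings UTP and related nucleotides into the matrix. A_51_P156438 gave 1.82, 1.61, 1.58 and 1.66 in WT and 1.40, 1.31, 1.43 and 1.07 in the hearts labelled SIRT1 KO. Every heart of the second group lay below every WT heart, and SIRT1 KO replicate 4 was lowest. The log2 fold change was -0.36 (SE 0.10, adjusted p = 0.0747, limma), and over the 14 other ways of processing and the 8 fits with a heart left out it stayed between -0.58 and -0.29, with adjusted p from 0.0150 to 0.225. It passed the threshold in 4 of the 14, those with median scaling, with no scaling, with an intensity trend and with normexp background correction. Without the 2 hearts with high liver markers it was -0.30 (adjusted p = 0.225, limma).

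A_51_P156434 of the same gene gave -0.96, -1.42, -1.18 and -1.31 in WT and -1.50, -1.71, -1.41 and -1.86 in the hearts labelled SIRT1 KO. SIRT1 KO replicate 3 lay just above WT replicate 2, the only overlap between the groups. The log2 fold change was -0.40 (SE 0.13, adjusted p = 0.123, limma). *Slc25a36*, the other pyrimidine nucleotide carrier, gave -1.51, -1.53, -1.51 and -1.66 in WT and -1.72, -1.77, -1.85 and -1.58 in the others, where WT replicate 4 and SIRT1 KO replicate 4 overlapped, a log2 fold change of -0.18 (SE 0.08, adjusted p = 0.246, limma).

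*Slc25a44* had the highest log2 fold change and was not called, with a wide spread. It encodes a carrier of branched-chain amino acids. Its probe gave -2.66, -2.82, -2.83 and -2.89 in WT and -2.11, -1.87, -2.63 and -2.62 in the hearts labelled SIRT1 KO. SIRT1 KO replicates 1 and 2 stood well above WT and replicates 3 and 4 just above it, so the groups did not overlap while the SD was 0.38 in the second group. The log2 fold change was 0.49 (SE 0.17, adjusted p = 0.144, limma). Of 14 other ways of processing it passed the threshold in 1, with array weights (0.64, adjusted p = 0.0370, limma). The lowest values were 0.27 with no scaling and 0.34 without SIRT1 KO replicate 2. Without the hearts with high liver markers it was 0.55 (adjusted p = 0.246, limma).

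Other amino acid carriers were near 0 or lower. *Slc25a2*, an ornithine carrier, gave -3.86, -3.86, -3.67 and -3.84 in WT and -4.21, -3.93, -4.02 and -3.96 in the hearts labelled SIRT1 KO. The second group lay below WT, with a log2 fold change of -0.22 (SE 0.09, adjusted p = 0.185, limma). The probe was called in 3 of 14 other ways of processing: quantile normalization (-0.37), cyclic loess (-0.35) and no scaling (-0.44). Its value was 0.04 with normexp background correction, and it was called in 0 of 8 fits with a heart left out. *Slc25a15*, the main ornithine carrier, was at -0.15 (adjusted p = 0.275, limma; above 0 with normexp). *Slc25a13*, the liver-type aspartate/glutamate carrier, was at -0.16 with overlapping groups. *Slc25a22*, a glutamate carrier, *Slc25a29*, a basic amino acid carrier, and *Slc25a38*, a glycine carrier, had log2 fold changes from -0.09 to 0.10.

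*Slc25a32*, the folate and flavin carrier, was the remaining probe without overlap. It gave -0.42, -0.36, -0.46 and -0.44 in WT and -0.62, -0.59, -0.49 and -0.78 in the hearts labelled SIRT1 KO. The second group lay below WT, SIRT1 KO replicate 3 by the least, with a log2 fold change of -0.20 (SE 0.08, adjusted p = 0.188, limma). The 17 probes of the cofactor and nucleotide carriers, this gene and *Slc25a33* included, were above 0 on 7 and below on 10, and 0 were called. At an unadjusted p under 0.05 there were 4 lower (23.5%, beside 8.1% of all probes), both probes of *Slc25a33* and 1 each of *Slc25a32* and *Slc25a39*, and 1 higher (5.88%, beside 13.4%), of *Slc25a17*.

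Within that group, *Slc25a39*, a carrier needed for mitochondrial glutathione, had both probes lower (-0.28, adjusted p = 0.182, and -0.12, adjusted p = 0.489, limma), while its relative *Slc25a40* had 1 probe at -0.20 and 1 at 0.11. *Slc25a17*, the peroxisomal carrier of cofactors, had 3 probes from -0.04 to 0.18. *Slc25a26* (S-adenosylmethionine), *Slc25a51* (NAD) and *Slc25a16* lay between -0.07 and 0.06. *Slc25a42*, a coenzyme A carrier, was at 0.15 with a wide interval of -0.40 to 0.71.

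**Figure D3:**
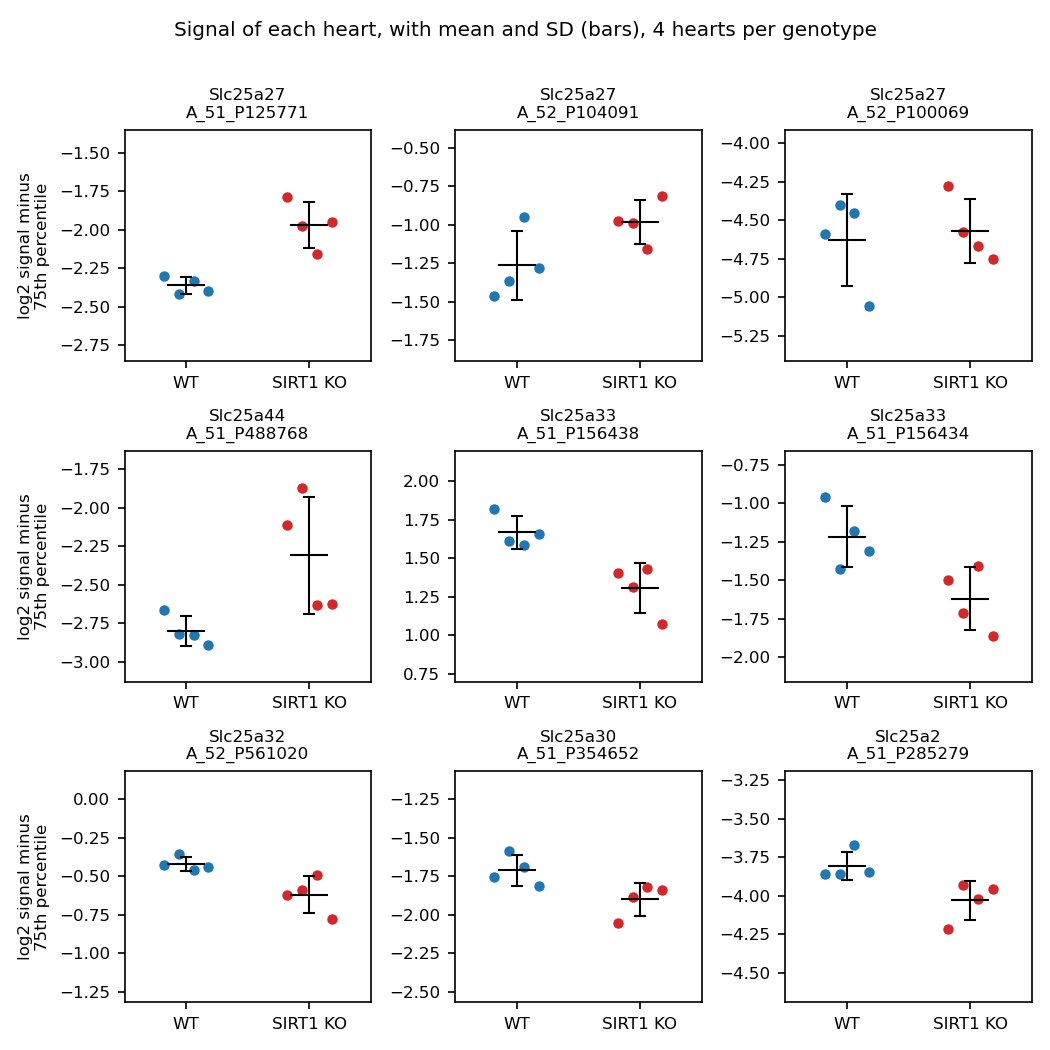
Log2 signal minus the array's 75th percentile (y axis) of each heart on 9 probes of *Slc25a27*, *Slc25a44*, *Slc25a33*, *Slc25a32*, *Slc25a30* and *Slc25a2*, with the mean and SD of 4 hearts as bars, each panel spanning the same height. On A_51_P125771 of *Slc25a27* all hearts labelled SIRT1 KO are above all WT hearts (difference 0.39), and on A_51_P156438 of *Slc25a33* all are below (difference -0.36).

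*Slc25a20* encodes the carnitine/acylcarnitine carrier, which brings long-chain fatty acids into the matrix for oxidation. It gave 1.02, 0.70, 0.89 and 0.67 in WT and 0.68, 0.51, 0.71 and 0.59 in the hearts labelled SIRT1 KO. The groups overlapped with the second one lower on average, a log2 fold change of -0.20 (SE 0.10, adjusted p = 0.277, limma). Of the other carnitine shuttle genes, 2 of 10 tested probes were called, both higher, beside 4.88% of all probes. Of the 10, 6 were below 0, and at an unadjusted p under 0.05 there were 3 higher and 1 lower (*Crat*, carnitine acetyltransferase, -0.23, adjusted p = 0.116, limma). The called probes were A_51_P232913 of *Cpt1b*, the muscle carnitine palmitoyltransferase (0.38, adjusted p = 0.0330, limma), and A_52_P269942 of *Cpt1c* (0.35, adjusted p = 0.0431, limma). The other probe of *Cpt1b* gave -0.04.

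The iron carriers were not called. *Slc25a37* (mitoferrin 1), which supplies iron for heme in red cells, had probes at -0.03 and -0.01. *Slc25a28* (mitoferrin 2), which serves other tissues, gave 1.06, 1.05, 1.03 and 1.11 in WT and 1.27, 1.10, 1.30 and 1.36 in the hearts labelled SIRT1 KO. SIRT1 KO replicate 2 lay within WT and the other 3 above it, a log2 fold change of 0.20 (SE 0.08, adjusted p = 0.185, limma). Of 12 tested probes of heme synthesis genes 0 were called (limma; 1 at an unadjusted p under 0.05), and 7 were above 0.

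The di- and tricarboxylate carriers beside *Slc25a11* also lay near 0. *Slc25a1*, the citrate carrier, was at -0.04, *Slc25a10*, the dicarboxylate carrier, at -0.04, and *Slc25a35* at -0.10. Of the carriers placed in no transport group, *Slc25a43* had probes at -0.26 (adjusted p = 0.170, limma) and -0.20, and the 3 probes of *Slc25a46*, an outer membrane protein of mitochondrial dynamics, lay from -0.13 to -0.05. *Slc25a45* was at 0.05.

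Where a gene had several tested probes, these gave a partial check of each other. Of 13 such genes, 9 had all probes on the same side of 0, 6 lower and 3 higher, and 4 had probes on both sides (*Slc25a17*, *Slc25a24*, *Slc25a29* and *Slc25a40*). The widest spread between probes of 1 gene was 0.34, in *Slc25a27*, and the narrowest was 0.02, in *Slc25a37*.

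The hearts differed among themselves across the family. SIRT1 KO replicate 3 was the highest of its 4 hearts on 30 of the 56 probes (53.6%), beside 30.7% over all probes tested. SIRT1 KO replicate 4 was the lowest of its 4 on 25 (44.6%), beside 31.4%. Among WT, replicate 1 was highest on 23 (41.1%), beside 29.4%. Relative to the WT mean, the median of the 56 probes was 0.03 in SIRT1 KO replicate 3 and -0.09 in replicate 4, while over all probes both were at 0.01. The array of SIRT1 KO replicate 3 had the lowest 75th percentile, 777 intensity units, and its part in this order was not tested.

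**Figure D4:**
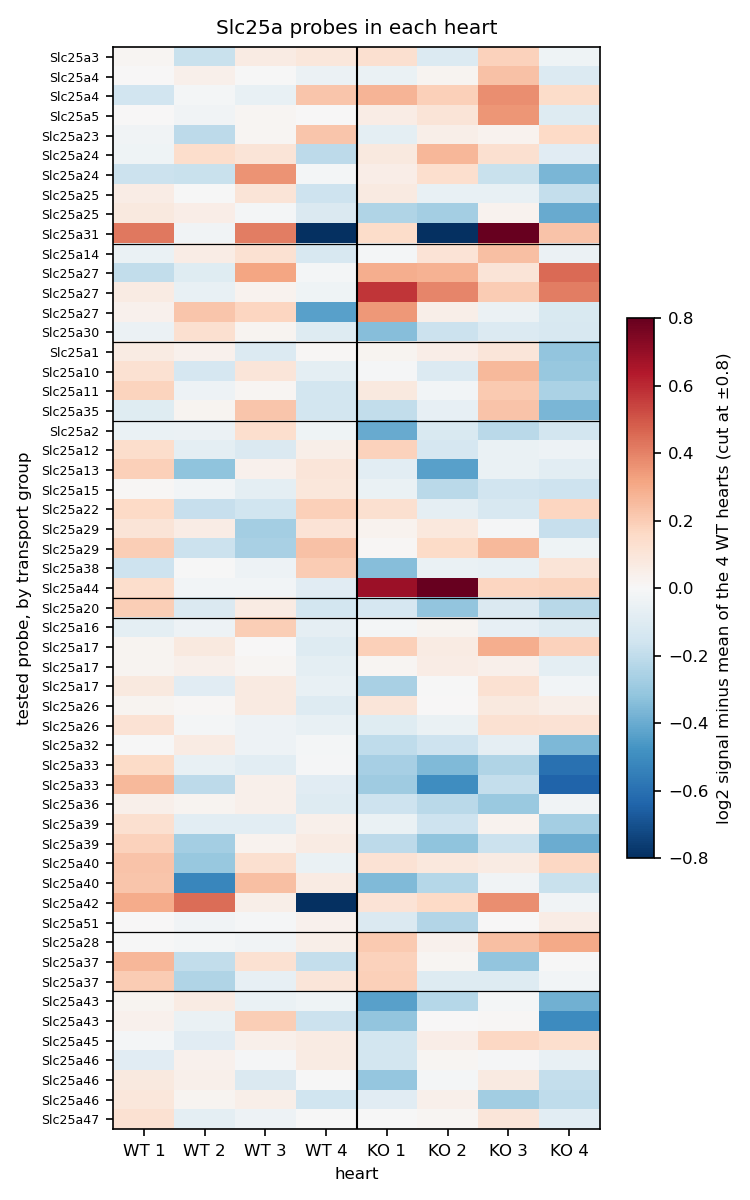
The signal of 55 of the 56 tested Slc25a probes (rows, in blocks by transported substrate) in each heart (columns, WT then SIRT1 KO), coloured by log2 signal minus the mean of the 4 WT hearts, with colours cut at 0.8 either way. Rows of *Slc25a33* are blue and A_51_P125771 of *Slc25a27* is red across all hearts labelled SIRT1 KO, and SIRT1 KO replicate 4 was the lowest of its group on 25 of the 56 probes.

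The size of the family's median depended on how the arrays were put on 1 scale. Scaling to the 75th percentile gave -0.02, quantile normalization -0.06, cyclic loess -0.04, scaling to the median -0.15 and no scaling -0.24, while the median over all probes went from 0.01 to -0.03, -0.01, -0.12 and -0.21. The family's median was 0.03 to 0.04 below that of all probes with the 75th percentile, quantile normalization and cyclic loess. Median scaling and no scaling move every probe by the same amount, so they could not change this gap. With no scaling 15 family probes (26.8%) were called lower, beside 22.3% of all probes, and 0 were called higher, and of all calls 10.0% were higher, in place of 81.4%. The family's median was above 0 with normexp background correction (0.020, beside 0.053 over all probes), without the 2 hearts with high liver markers (0.030, beside 0.012) and without WT replicate 1 (0.015, beside 0.012).

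**Figure D5:**
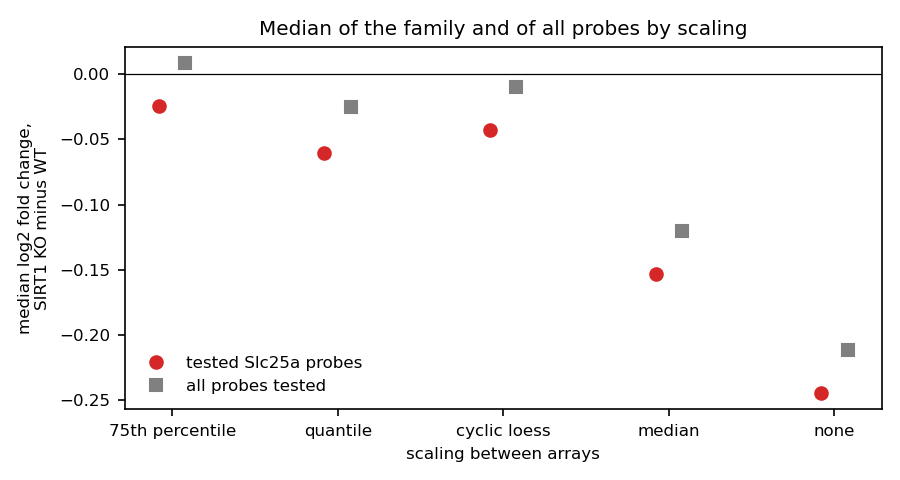
Median log2 fold change (y axis, SIRT1 KO minus WT) of the tested Slc25a probes (circles) and of all probes tested (squares) under 5 scalings between arrays (x axis). The circle is below the square under each scaling, at -0.02 and 0.01 with the 75th percentile and at -0.24 and -0.21 with no scaling. Median scaling and no scaling move both marks by the same amount, so the gap there is that of the 75th percentile.

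Genes that work beside the carriers were read from lists of related genes. The family's relatives under other names, uncoupling proteins and *Mtch1* and *Mtch2*, had 0 of 7 probes called (limma; 0 also at an unadjusted p under 0.05). Genes that import carriers into the inner membrane had 16 of 20 probes below 0 with a median of -0.15, and 0 were called (limma). That leaves 20% above 0, beside 51.7% of all probes. At an unadjusted p under 0.05 (limma) there were 4, all lower (20%, beside 8.1% of all probes). The lowest p were those of *Tomm70a*, the receptor of carrier precursors (-0.28, adjusted p = 0.0966, limma; its other 2 probes at -0.12 and 0.05), and *Tomm22* (-0.24, adjusted p = 0.117, limma). ATP synthase, which works with the ADP/ATP and phosphate carriers, had 0 of 21 probes called, the nearest being A_52_P328078 of *Atp5b* (0.44, adjusted p = 0.0528, limma), with the other probes of this gene at 0.02 and 0.10.

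Other transporters of the mitochondrial membranes had 1 of 28 probes called (3.57%, beside 4.88% of all probes). It was A_52_P599680 of *Sfxn4*, a sideroflexin, above background on no WT array and on all 4 arrays labelled SIRT1 KO, at least 2.16-fold higher (adjusted p = 0.00216, limma) when WT is set at the lowest signal well above background. This probe entered the test only through the arrays on which it was high, so its call is no support for the list. The other probe of *Sfxn4* differed by 0.27 (adjusted p = 0.132, limma). Of the 28, 17 were below 0. At an unadjusted p under 0.05 (limma) there were 3 higher (10.7%, beside 13.4% of all probes) and 7 lower (25%, beside 8.1%). In the malate-aspartate and glycerol phosphate shuttles 1 of 8 probes was called (12.5%, beside 4.88% of all probes). It was A_52_P407796 of *Mdh1* (0.35, adjusted p = 0.0490, limma), and the other *Mdh1* probe gave -0.14. Of these 8, 5 were below 0, and at an unadjusted p under 0.05 there were 2 higher and 1 lower (*Gpd2*, a glycerol phosphate dehydrogenase, -0.28, adjusted p = 0.0931, limma). Among regulators of mitochondrial genes 1 of 18 was called (5.56%, beside 4.88% of all probes). It was A_51_P224192 of *Esrrg*, an estrogen-related receptor (0.81, adjusted p = 0.00345, limma), and the other *Esrrg* probe gave -0.02.

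Cell type markers were read beside the carriers. All 11 cardiomyocyte genes were measured, with 1 of 23 probes called (4.35%, beside 4.88% of all probes), 16 above 0 and a median of 0.23. At an unadjusted p under 0.05 there were 8 of the 23 (34.8%), all higher, beside 13.4% higher of all probes, and they came from 3 genes, with 5 from *Ttn*, 2 from *Myh7* and 1 from *Tnnt2*. *Ttn* alone had 8 of the 23 probes, while both *Nppa* probes (-0.33 and -0.52) and *Myl7* (-0.26) were below 0. The list's summed level was 2483 to 2705 in WT and 2557 to 2988 in the hearts labelled SIRT1 KO. The erythroid list, beside which *Slc25a37* stands, had 1 of 9 probes called (11.1%, beside 4.88% of all probes). It was *Hbb-y*, an embryonic globin, higher by 0.92 (adjusted p = 0.00783, limma). Of the 9, 6 were below 0, the lowest at -0.68. At an unadjusted p under 0.05 (limma) there were 1 higher and 3 lower (33.3% lower, beside 8.1% of all probes). The list's summed level was 895 to 996 in WT and 798 to 965 in the hearts labelled SIRT1 KO. Of the testis list, beside which *Slc25a31* stands, *Prm2* was above background on no array. *Tnp1* was above background on no WT array and entered the test only through the 4 arrays on which it was high (at least 2.03-fold higher, adjusted p = 0.00706, limma). Without *Slc25a31* itself the list held 3 tested probes of 2 genes, *Tnp1* among them. Their summed level was 0.12 to 0.14 in WT and 0.14 to 0.17 in the others, and SIRT1 KO replicate 3 was not the highest. As *Tnp1* entered through the arrays on which it was high, the higher range gives no separate reading of testis markers. Of the brown fat, endothelial, macrophage, and fibroblast and epicardial lists 0 probes were called (limma; 1, 1, 2 and 1 at an unadjusted p under 0.05). The part of these cell types in the carrier values was not tested.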

How the data were processed

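The authors deposited, for each of the 8 arrays, the Feature Extraction intensity of every spot after background subtraction, with no scaling between arrays. The file headers name version 12.0.0.7 of this software, and the submitters' processing notes name Agilent Feature Extraction 12. A deposited table of the whole series holds the same intensity values in 100% of the spots and was not used further.

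From these intensities log2 was taken, the 75th percentile of each array over non-control probes was subtracted, and spots of a probe were averaged without outlier spots. Accessions were matched without versions to RefSeq symbols of GRCm38.p6, used for names and for the promoter sequences, which named 28223 of 41174 probes (68.5%). The probes that Feature Extraction marked well above background on 4 or more of the 8 arrays entered limma (version 3.58.1, under R 4.3.3; lmFit, eBayes, genotype only), with Benjamini-Hochberg adjustment over all 25616 at 0.05. Single probes were also compared by an exact permutation test (two-sided), which cannot go below p = 0.0286 with 4 hearts in each genotype. With separate hearts and no litters named, p-values measure the spread between these hearts.

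Carrier probes given in every heart are those past the threshold, those without overlap between genotypes, the other probes of such genes, and the 5 brightest genes; of related lists, called members or the 2 with the smallest p. *Slc25a20*, *Slc25a28*, *Slc25a31*, *Slc25a36*, *Slc25a47*, *Crat*, *Gpd2*, *Nppa*, *Myl7*, *Ttn*, *Myh7* and *Tnnt2* were added after their values were seen. The members, lists and alternatives were chosen with earlier results of these data known. Groups came from the sample labels. A carrier probe and a marker gene that entered the counts are not reported here by name and are not plotted. Alternatives changed the background correction, scaling, filter, test, outlier spots, replicate block and the hearts included. The fit was tested on 25535 simulated probes, of which 200 were shifted by 1 on the log2 scale. It recovered 79% of these, 100% in the right direction, with 4.82% of its calls false. The shift was larger than any carrier difference, and the simulated hearts had no slide or scan effect. These rates therefore do not carry over to the differences reported here. Data were prepared with Python 3.11.15, numpy 2.4.6, pandas 2.3.3 and scipy 1.17.1, and plots were drawn with matplotlib 3.10.9.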

Additional observations from a re-analysis of the deposited data

Results flagged for a closer look

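In 5 of 112 groups of 4 hearts (4.46%) 1 heart stood far from the others of its genotype, by Dixon's ratio of its gap to the range of the group, and chance gives about 1 in 20. *Slc25a2* was highest in WT replicate 3 (-3.67, the other WT hearts -3.86 to -3.84, ratio 0.918). *Slc25a13* was lowest in SIRT1 KO replicate 2 (2.45, the others 2.80 to 2.84, ratio 0.912). *Slc25a16* was highest in WT replicate 3 (-0.37, the others -0.64 to -0.61, ratio 0.857). *Slc25a29* on A_51_P288479 was lowest in WT replicate 3 (-1.67, the others -1.34 to -1.29, ratio 0.870). *Slc25a36* was lowest in WT replicate 4 (-1.66, the others -1.53 to -1.51, ratio 0.869).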

How the results depend on the processing

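The direction was kept in all 22 alternatives by 19 of the 56 tested probes, 15 lower and 4 higher, and turned in at least 1 by the other 37. Median scaling and no scaling move every probe down by the same amount, so a lower probe cannot turn there and a probe just above 0 must, and the split between lower and higher says nothing about the family. The count of carrier probes called higher, 1 in the report, was 2 with array weights and 0 with cyclic loess, median scaling, quantile normalization, no scaling, the methods' analysis of variance, no filter on dim probes, the filter of at least 1 array, the replicate block, and both SIRT1 KO hearts with high liver markers left out. The count called lower, 0 in the report, was 1 with cyclic loess, quantile normalization, median scaling, an intensity trend with a robust prior, and normexp on the median signal, and 15 with no scaling. With 1 heart left out, 0 to 1 were called higher and 0 to 1 lower; only the fit without SIRT1 KO replicate 3 made any call (*Slc25a27* higher, a *Slc25a43* probe lower). The family's median of -0.02 was 0.030 without the hearts with high liver markers, -0.15 with median scaling and -0.24 with no scaling.

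Over all probes, 1250 calls became 2130 with array weights, 2566 with normexp, 6347 with no scaling, 546 with the methods' analysis of variance, 645 without the hearts with high liver markers, and 657 to 1825 with 1 heart left out. They were 728 without SIRT1 KO replicate 1, 726 without replicate 2, 658 without WT replicate 2 and 657 without WT replicate 3. Calls higher made up 81.4% in the report, 63.6% after quantile normalization, 70.2% after cyclic loess, 38.1% when scaled to the median and 10.0% unscaled. Among the 12 tested probes named by the rule, signs that turned were those of *Slc25a2* (0.040 with normexp), *Slc25a3* (-0.0092 with array weights, -0.088 with median scaling, -0.18 with none, -0.018 to 0.092 with 1 heart left out), A_52_P105040 of *Slc25a4* (-0.10, -0.20 and -0.11 with median, no and quantile scaling, -0.046 to 0.068 with 1 heart left out), *Slc25a5* (-0.025 with median scaling, -0.12 with none), *Slc25a11* (-0.13 with median scaling, -0.22 with none, -0.070 with normexp, -0.066 to 0.089 with 1 heart left out) and *Slc25a12* (0.0063 with array weights, 0.019 with cyclic loess and quantile normalization, -0.077 to 0.036 with 1 heart left out). The cause was not tested.

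Same-numbered hearts deviated together with r of 0.20, 0.21, 0.06 and 0.14 across probes, and each heart correlated best with its own number, a hint from the data and not from the design. The replicate block gave 1185 calls over all probes and 0 carrier calls (*Slc25a27* 0.39, adjusted p = 0.0608, limma). Normexp on the mean signal was not run, since the files used here hold the median signal; normexp on the median signal and leaving out the hearts with high liver markers were chosen after seeing the data. A slide block could not be fitted. Signal over background limits *Slc25a31* and the 7 untested probes.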
